A study of Homo sapiens with 19 samples.

Results

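AKAP8 peaks found only in the epithelial state are regions of RNA that the AKAP8 eCLIP peak list of epithelial cells held and that no peak of the mesenchymal list touched by 1 nt or more on the same strand. Of 24637 epithelial peaks, 9467 met this rule (38.4%). The other 15170 overlapped a mesenchymal peak and are called shared. Of the 30390 mesenchymal peaks, 15379 had no epithelial partner and are called MES-only. The members were therefore chosen by where peaks had been called in each state, and that choice is a description with no test. A peak missing from a list says that none was called there, not that the RNA was unbound.

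HMLE/Twist-ER cells are immortalized human mammary epithelial cells that carry the transcription factor Twist fused to an estrogen receptor. Without treatment they are in the epithelial state (EPI), and 20 nM tamoxifen (TAM) in the medium drives an epithelial-mesenchymal transition (EMT) to the mesenchymal state (MES). For eCLIP, UV-crosslinked EPI and MES cells each gave 2 libraries precipitated with an AKAP8 antibody and 2 input libraries, and the deposited lists hold 1 merged value per state. For RNA-seq, cells carried a stable lentiviral shRNA, either non-specific (control) or against AKAP8 (knockdown), with 3 libraries each of EPI control, EPI knockdown and MES control cells and 2 of MES knockdown cells. All cells of both states carry Twist-ER, and the tamoxifen itself was given to MES cells alone.

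AKAP8 is a nuclear A-kinase anchoring protein with zinc fingers that also binds RNA and takes part in splicing. eCLIP crosslinks a protein to RNA in living cells, precipitates it, and compares the recovered fragments with a size-matched input, so a peak marks RNA recovered more often with the protein. Most pre-mRNA is intron, and splicing factors that sit in introns near a variable exon can raise or lower its inclusion. During EMT, epithelial cells lose junction proteins such as E-cadherin and gain mesenchymal transcription factors and matrix genes, and many cassette exons change their inclusion at the same time.

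The RNA-strand sequence of 8 EPI-only peaks is given here as DNA letters from GRCh37, with runs of at least 3 guanines in capitals. FGFR3 held a pair of the 10 strongest peaks, of which the shorter is given (chr4:1796415-1796487, plus strand). PRKCZ (chr1:1982623-1982692, plus strand) and JAG2 (chr14:105633345-105633422, minus strand) were among the genes with the most EPI-only peaks. CDH1 (chr16:68794684-68794803, plus strand) and JUP (chr17:39928490-39928558, minus strand) are adherens junction genes. The peaks of CLSTN1 (chr1:9797775-9797856, minus strand), ENTPD6 (chr20:25202822-25202870, plus strand) and DDR1 (chr6:30853635-30853704, plus strand) lie in introns beside an exon whose inclusion changed.
FGFR3: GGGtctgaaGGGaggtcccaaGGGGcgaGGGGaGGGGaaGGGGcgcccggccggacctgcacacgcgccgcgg
PRKCZ: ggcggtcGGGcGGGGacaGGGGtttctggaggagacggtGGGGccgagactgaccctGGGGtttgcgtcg
JAG2: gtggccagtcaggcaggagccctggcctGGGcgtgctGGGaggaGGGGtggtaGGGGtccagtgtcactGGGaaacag
CDH1: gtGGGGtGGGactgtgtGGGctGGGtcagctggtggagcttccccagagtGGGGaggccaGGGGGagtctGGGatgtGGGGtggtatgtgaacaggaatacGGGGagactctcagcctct
JUP: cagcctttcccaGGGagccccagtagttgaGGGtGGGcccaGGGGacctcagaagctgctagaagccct
CLSTN1: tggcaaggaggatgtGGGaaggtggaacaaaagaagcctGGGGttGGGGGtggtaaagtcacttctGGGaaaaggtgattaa
ENTPD6: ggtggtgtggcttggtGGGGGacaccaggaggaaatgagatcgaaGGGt
DDR1: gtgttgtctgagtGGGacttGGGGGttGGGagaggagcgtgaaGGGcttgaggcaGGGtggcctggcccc
The CDH1 peak held 9 such runs, the CLSTN1 peak 4 and the ENTPD6 peak 2. All 8 peaks lie in introns.

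EPI-only peaks were somewhat weaker than shared ones. Their log2 ratio of IP over input had a median of 3.48 (quartiles 3.06 and 3.89, highest 6.57), against 3.82 for shared EPI peaks and 3.30 for MES-only peaks. The median −log10 adjusted p was 6.07, 9.54 and 5.24 in the same order, and 84.7% of EPI-only peaks reached both a log2 ratio of 2 and a −log10 adjusted p of 3. Among the 5927 EPI peaks with the lowest log2 ratios (up to 3.18), 50.5% were EPI-only (95% exact binomial interval 49.2 to 51.8), and among the 6160 with the highest (from 4.198) 21.9% (20.9 to 23.0). These intervals, like all intervals on shares of peaks here, are Clopper-Pearson intervals that cover counting error only, since peaks of 1 merged list are no replicates. The members thus lay more often among peaks of low enrichment, and both rule and strength come from the same eCLIP libraries.

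Many listed peaks overlapped each other and so shared sequence. Of the EPI-only peaks, 5394 overlapped no other EPI peak, 3801 overlapped only other EPI-only peaks, and 272 stood in a run with a shared peak. Merged by overlap, the 24637 EPI peaks gave 15145 sites, of which 7036 (46.5%) held EPI-only peaks alone. The median log2 ratio was 3.24 for EPI-only peaks that stood alone and 3.71 for those that overlapped another.

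The distance to the nearest MES peak on the strand varied widely among members. A MES peak lay within 50 nt of 1113 members (11.8%) and within 500 nt of 3356 (35.4%), and more than 5000 nt away from 4233 (44.7%). At the edge of the rule, 74 members directly touched a MES peak without overlap, with log2 ratios from 0.93 to 5.20 and a median of 3.58. Just outside it, 61 shared peaks overlapped by exactly 1 nt, with log2 ratios from 2.12 to 5.21 and a median of 3.69. With a gap of up to 500 nt counted as shared, 6111 EPI-only peaks remained, 24.8% of EPI peaks.

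The 10 strongest members came from 7 genes. PRNP, which encodes the prion protein, held a pair of overlapping peaks with log2 ratios of 6.57 and 6.53. RNF220, a ubiquitin ligase gene, followed with a pair at 6.43 each, then the fatty acid desaturase gene FADS2 (6.30), ATN1 (6.23), the growth factor receptor gene FGFR3 (6.22 and 6.20), ZFX (6.21) and PLEKHG5 (6.12). Of these, the peak of FADS2 had a MES peak 35 nt away, whereas the nearest MES peak was 59782 nt from that of ATN1 and 50321 nt from that of FGFR3.

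Intronic positions held most EPI-only peaks, and their place within the intron differed from that of the other classes. By the annotation at the peak centre, 57.6% lay in distal introns (over 500 nt from a splice site; interval 56.6 to 58.6) and 31.1% in proximal introns (30.2 to 32.0). The proximal share was 20.0% in shared EPI peaks (19.4 to 20.7) and 13.1% in MES-only peaks (12.5 to 13.6), and the 3 intervals do not overlap. Exons of any kind held 8.27% of EPI-only peaks (7.72 to 8.84), against 5.27% of shared and 4.19% of MES-only peaks. The 5′ UTR share was 3.41%, the 3′ UTR share 3.03% and the coding share 0.687%, and 3.04% of the members had no annotated gene on their strand.

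**Figure D1:**
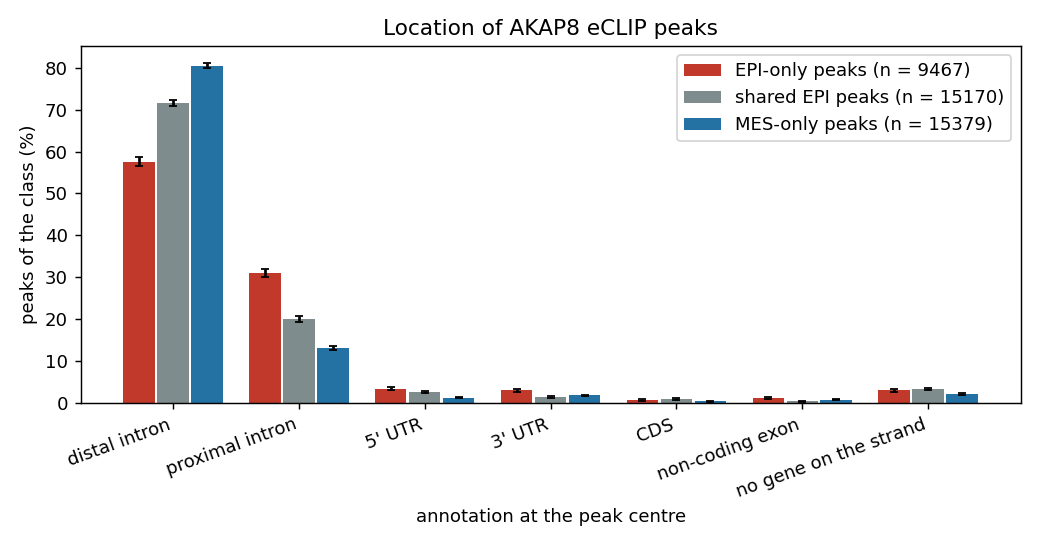
Share of AKAP8 peaks of each class (y axis, percent) by the annotation at the peak centre (x axis), for EPI-only, shared EPI and MES-only peaks, with 95% exact binomial intervals as error bars. Proximal introns hold 31.1% of EPI-only, 20.0% of shared EPI and 13.1% of MES-only peaks, and distal introns 57.6%, 71.5% and 80.5%.

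The excess in proximal introns was present in each subset in which it was counted again. In the 995 genes that hosted both EPI-only and shared peaks, 27.4% of EPI-only peaks were proximal (26.2 to 28.6) against 18.8% of shared peaks (18.2 to 19.5). In genes whose RNA level differed by no more than 0.5 on the log2 scale between the states, the shares were 37.05% of 3409 EPI-only peaks and 21.9% of 6727 shared peaks. Among peaks with a log2 ratio of at least 4, they were 31.2% and 20.3%. In genes that were lower in MES, the shares were closer, at 25.4% (23.3 to 27.6) and 20.4% (18.1 to 23.0), and their intervals do not overlap either. No test was made over peaks.

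Within proximal introns, EPI-only peaks lay nearer the 5′ splice site in 73.4% of cases, close to the 75.6% of shared peaks and above the 65.4% of MES-only peaks. The first intron of the transcript held 52.8% of intronic EPI-only peaks, 56.7% of shared and 51.3% of MES-only peaks. Introns with EPI-only peaks had a median length of 9766 nt per peak, against 11763 nt for shared and 20730 nt for MES-only peaks. Of members in a gene, 26.5% were centred within 1000 nt of the transcript start, against 19.6% of shared and 9.51% of MES-only peaks. EPI-only peaks were thus nearer to transcript starts and splice sites than either other class.

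Runs of guanine were found at nearly all EPI-only peaks. In the 100 nt around the centre, on the RNA strand, GGG was present in 99.9% of EPI-only, 99.9% of shared and 99.3% of MES-only peaks (99.7% of all peaks), and in 89.2% and 86.5% of windows of the same length 500 nt upstream and downstream of the EPI-only centres. Since GGG is common in the flanks too, longer runs separate the windows better. GGGG was present in 91.8% of EPI-only windows, 92.8% of shared, 83.2% of MES-only and 89.7% of all peak windows, and in 56.6% and 52.2% of the EPI-only flanks. EPI-only windows held 5.88 runs of at least 3 guanines on average (SD 2.07 over peaks), shared windows 5.85 and MES-only windows 4.34.

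Guanine made up 44.5% of the bases in EPI-only windows, 44.2% in shared and 38.0% in MES-only windows. Among the flanked runs, which all contain GGG, AGGGA was in 41.5% of EPI-only windows, 38.6% of shared and 31.0% of MES-only windows, and UGGGA in 38.3%, 40.0% and 33.5%. AGGGU was in 28.4% and UGGGU in 29.4% of EPI-only windows. GGUGG was present in 56.7% of EPI-only windows, against 26.3% upstream and 24.5% downstream. GUGUG, a sequence of the GU-rich kind bound by hnRNPM, was in 21.1% of EPI-only windows (20.2 to 21.9) and in 15.5% and 16.9% of the flanks. UGCAUG, the RBFOX motif, was in 2.07% (1.79 to 2.38) against 2.46% and 2.40%, with overlapping intervals, and UUUUU was rarer at the centre, in 3.22% against 7.89% and 10.7%. Over all peaks the shares were 36.8% for AGGGA, 37.7% for UGGGA, 27.0% for AGGGU, 28.3% for UGGGU, 54.4% for GGUGG, 21.7% for GUGUG, 2.73% for UGCAUG and 3.03% for UUUUU.

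**Figure D2:**
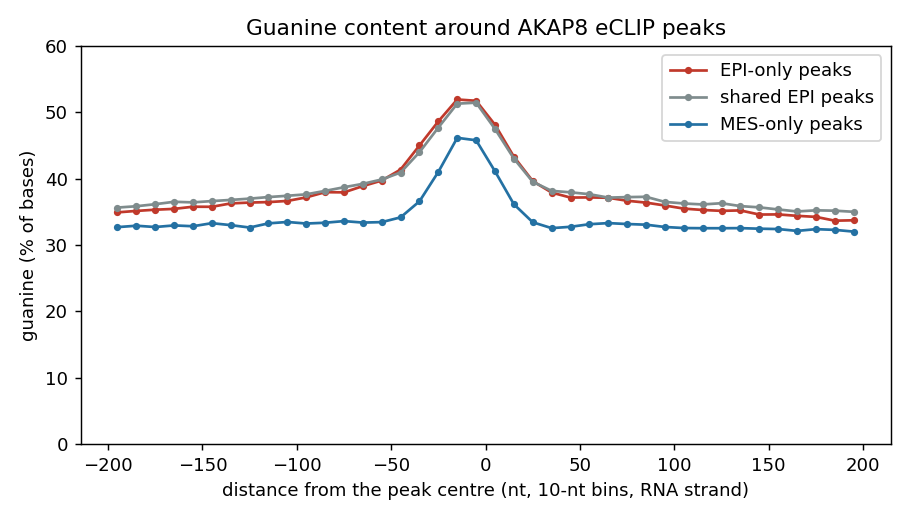
Guanine content (y axis, percent of bases) by distance from the peak centre (x axis, nt on the RNA strand, 10-nt bins) for EPI-only, shared EPI and MES-only peaks. The EPI-only line rises from 34.9% in the first bin to 51.7% just upstream of the centre, close to the shared line (51.5%) and above the MES-only line (45.8%).

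In all, 2353 genes hosted an EPI-only peak, with a median of 2 per gene. Of the peaks, 92.0% lay in protein-coding and 4.405% in lncRNA genes. A single EPI-only peak was found in 919 genes, while 176 genes with at least 10 held 3578 of the peaks. The share of EPI peaks that were EPI-only ranged from 19.7% on chromosome 9 to 59.2% on chromosome 6.

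The genes with the most EPI-only peaks were ranked by peak count, with overlapping peaks counted and no regard to gene length or RNA level. PRKCZ, the atypical protein kinase C zeta of the cell polarity complex, held 116 peaks in 57 sites, with log2 ratios between 1.86 and 5.25. It was followed by the transcription factor gene CASZ1 (91 peaks in 55 sites), the stress-response gene NDRG1 (83 in 47), the amino acid transporter gene SLC7A5 (77 in 52) and the Notch ligand gene JAG2 (70 in 36). C16orf74 had 56, CELSR1, a cadherin of planar cell polarity, 55, RAI1 50, PLEKHG5 46 and CCDC85C 46. PRKCZ, CASZ1, NDRG1 and JAG2 had no shared and no MES-only peak. In contrast, SLC7A5 had 39 shared and 5 MES-only peaks, and RAI1 80 and 27, so there EPI-only peaks stood among peaks called in both states.

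RNA levels of host genes were read from RNA-seq, which the rule had not used. A peak can be called only where its host RNA is present, so peak classes and host levels are not independent. The level of a gene is its junction reads over cassette exon events, scaled for library size, so genes without such an event have none. Several named genes, among them PRKCZ, SLC7A5, CELSR1, CDH1 and PPL, had 1 such event, so their level rests on it alone. Over the events used, the RNA-seq libraries had 21198882 to 28261544 junction reads each, with a read counted once per event. Of the 2353 host genes, 1718 (73.0%) had a tested level, and these held 6931 of the 9467 members. The basal markers TP63, ITGB4, LAMB3 and COL17A1 and the epithelial markers CDH1, ESRP1, OCLN and JUP were lower in MES, and VIM, FN1, ZEB1, ZEB2, CDH11, COL1A1 and SPARC were higher. KRT5, KRT14 and EPCAM had no level here, and of the markers of macrophages, endothelium and T cells only CD68 had one (mean 746 scaled reads in EPI and 364 in MES controls). AKAP8, the targeted gene, had 244, 310 and 245 scaled reads in EPI control and 121, 98.8 and 125 in EPI knockdown libraries (log2 fold change -1.20, standard error 0.25, adjusted p = 0.066 from limma). It had 382, 196 and 248 in MES control and 108 and 122 in MES knockdown libraries (-1.20, standard error 0.28, adjusted p = 0.032 from limma), and no knockdown library reached a control library of its state. AKAP8 RNA itself hosted 3 EPI-only, 8 shared and 5 MES-only peaks.

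Genes that hosted EPI-only peaks were more often lower than higher in MES. With limma on all 11 libraries, at a |log2 fold change| over 1 and a Benjamini-Hochberg adjusted p under 0.05, 216 of 1718 host genes (12.6%) were lower in MES controls than in EPI controls, beside 7.15% of all 9016 genes tested. Higher in MES were 50 (2.91%), beside 5.39% of all genes. The median log2 fold change was -0.14 over hosts and 0.01 over all genes. Genes with more members were lower more often, with 73 of 405 genes (18.0%) with at least 5 EPI-only peaks and 43 of 137 (31.4%) with at least 10. Of the 810 hosts with EPI-only peaks and no other AKAP8 peak, 140 were lower (17.3%) and 14 higher. In bulk RNA, fewer cells of a type and less RNA per cell cannot be told apart. How much of this difference follows from the need of host RNA for a peak was not tested.

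Hosts of the other classes moved in another direction. Of 226 genes whose only AKAP8 peaks were MES-only, 6 were lower and 47 higher in MES (20.8%). Of 208 genes with shared but no EPI-only peaks, 4 were lower and 18 higher, and of 6864 genes without a peak 6.10% were lower and 5.41% higher. The median level in EPI controls was 694 scaled reads for hosts of EPI-only peaks and 527 for genes without a peak. No test compared these groups of genes, whose peak classes depend on host RNA as well.

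Counted by peak, 1654 of the 2736 EPI peaks in genes lower in MES were EPI-only (60.5%, interval 58.6 to 62.3). In genes called neither way the share was 34.9% (34.1 to 35.7), and in genes higher in MES 29.3% (25.04 to 33.7). The share was 95.9% (92.3 to 98.1) in the 28 genes that fell by more than 3 on the log2 scale and 91.6% (88.9 to 93.8) in the 42 that fell by between 2 and 3. In the other bins it lay between 31.0% and 44.6%, with no steady order. Genes called neither way held 74.3% of the EPI-only peaks that had a host with a level, and genes lower in MES 23.9%. Whether a peak was missing in MES because of less host RNA or less binding cannot be told apart from these lists.

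**Figure D3:**
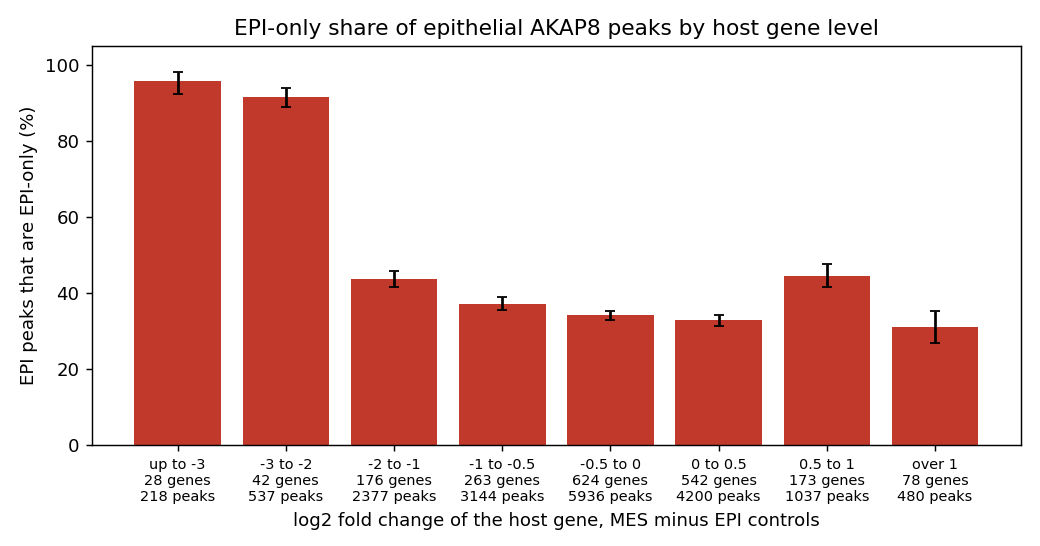
Share of epithelial AKAP8 peaks that were EPI-only (y axis, percent) by the log2 fold change of the host gene between MES and EPI controls (x axis, with the numbers of genes and EPI peaks), with 95% exact binomial intervals. The share is 95.9% and 91.6% in the bins of the most reduced genes and between 31.0% and 44.6% in all others.

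All 7 genes with a level among the 10 with the most members were lower in MES. PRKCZ had 214, 250 and 155 scaled reads in EPI control and 23.5, 30.6 and 26.3 in MES control libraries (log2 fold change -2.88, standard error 0.35, adjusted p = 6.5e-05 from limma). NDRG1 had 29058, 45478 and 39926 in EPI against 3702, 3838 and 6816 in MES controls (-3.03), and JAG2 249, 333 and 244 against 40.2, 52.0 and 51.6 (-2.49). In none of the 3 genes did the groups overlap. SLC7A5 fell by less, from 3291, 3541 and 2595 to 1573, 1258 and 983 (-1.32), as did C16orf74 (-2.20), CCDC85C (-1.28) and CELSR1 (-1.70, adjusted p = 0.026 from limma). The call of CELSR1 was lost without the library listed first or second in either group (limma adjusted p 0.072 to 0.096). CASZ1, RAI1 and PLEKHG5 had no level.

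**Figure D4:**
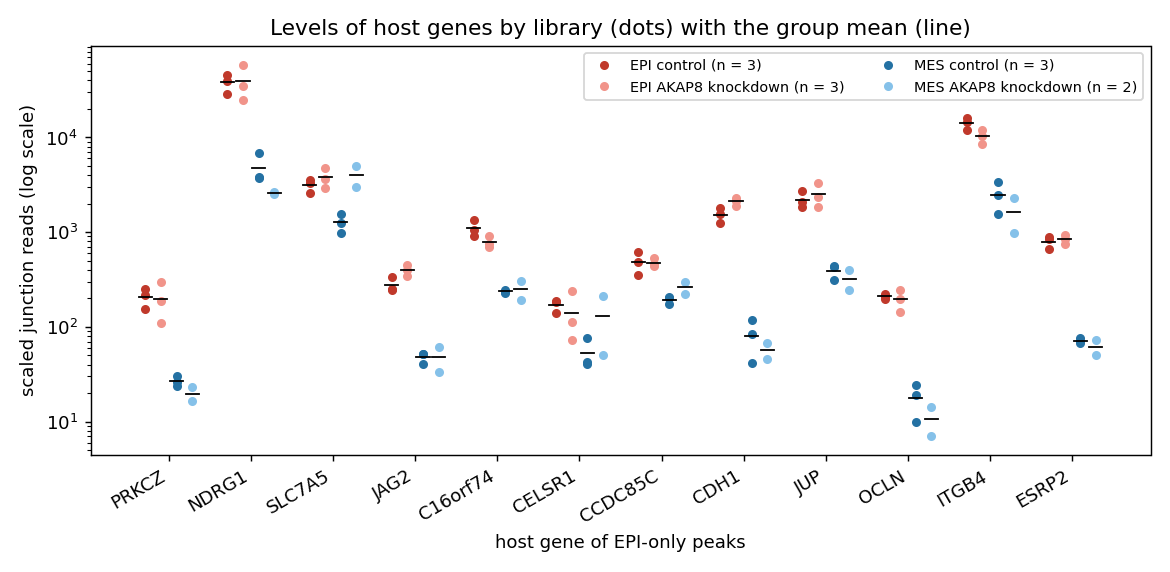
Scaled junction reads (y axis, log scale) of 12 host genes of EPI-only peaks (x axis) in every RNA-seq library of the 4 groups, as dots with the group mean as a line. Each gene lies lower in the 3 MES controls than in the 3 EPI controls, as for PRKCZ with 155 to 250 against 23.5 to 30.6.

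The host with the largest fall was FXYD3, a regulator of the sodium pump, with 9843, 13479 and 12215 scaled reads in EPI and 160, 175 and 353 in MES controls (-5.77, standard error 0.32). The protease gene ST14 had 2009, 2528 and 1539 against 68.6, 122 and 92.8 (-4.42), and CDH1, which encodes E-cadherin, 1251, 1794 and 1554 against 41.2, 118 and 83.3 (-4.34). MES levels were near 0 for several of the others. The transcription factor gene OVOL2 had 30.4, 40.3 and 23.8 in EPI and 0, 2.04 and 1.05 in MES controls, and ANO9, with 19 EPI-only peaks, had 49.3, 61.0 and 56.9 against 1.96, 0 and 11.6. The remaining genes of the 10 were ENTPD2, the ubiquitin ligase gene CBLC (13 EPI-only peaks), the polarity gene LLGL2, the vesicle motor gene MYO5B and ARHGAP8 (9 peaks), with log2 fold changes from -4.47 to -4.05. Folds of genes near 0 in MES depended on the pseudocount: at 10 in place of 1 they were -1.90 for OVOL2, -2.26 for ANO9 and -2.91 for LLGL2, and the 3 were still called lower. The place of OVOL2, ANO9 and LLGL2 among the 10 largest rests on that choice. None of these 10 genes had a shared or MES-only peak.

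Of the 10 hosts with the largest rises, 5 held at least 8 MES-only peaks beside 1 to 4 EPI-only ones. ZEB1, a repressor of E-cadherin, had 0.949, 1.97 and 6.20 scaled reads in EPI and 74.5, 58.1 and 69.6 in MES controls, and its RNA held 1 EPI-only and 8 MES-only peaks. The matrix gene FBLN1 rose by 3.03 on the log2 scale and held 2 EPI-only, 8 shared and 59 MES-only peaks. RPS6KA2 (24 MES-only peaks), TNS3 (24) and PXDN (36) were similar, with 1, 4 and 1 EPI-only peaks. NPR2, TPM1 and SPARC rose as well (2.83, 1.95 and 1.91) and each held 1 EPI-only peak and no other. LPAR1 and CRACDL completed the 10, at 2.14 and 1.76.

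Of 56 epithelial junction and basal genes, 20 hosted EPI-only peaks, 103 in all, beside 28 shared and 10 MES-only peaks. Among the 31 with a level, 15 were hosts, beside 1718 of all 9016 genes tested. Of the 15 hosts with a level, 11 were lower in MES by limma (median log2 fold change -2.49), and over all 31 members with a level 25 were lower (median -2.52). JUP, which encodes plakoglobin, held 34 peaks in 24 sites and no other AKAP8 peak, and fell from 1844, 2718 and 2070 to 311, 440 and 429 scaled reads (-2.49, standard error 0.25). ITGB4, the hemidesmosome integrin, held 18 EPI-only and 11 shared peaks and fell by 2.603 on the log2 scale. The 6 peaks of CDH1 lay in its first 2 introns, 3 of them in the proximal part of the first (chr16:68771648-68771726 is the nearest to its start). OCLN, the tight junction protein occludin, held 4 peaks and fell by 3.58. GRHL2, an epithelial transcription factor gene without a level here, held 9.

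Hosts of the list that did not pass included CTNNA1, TJP1 and CTNNB1, with values close to 0. CTNNA1, the alpha-catenin gene, held 4 EPI-only peaks and no other, with 14963.5, 17479.5 and 15600.2 scaled reads in EPI and 15200.1, 15039.8 and 13369.7 in MES controls (-0.14). TJP1, a scaffold of tight junctions, held 2 EPI-only peaks and had a log2 fold change of 0.23, and CTNNB1, which encodes beta-catenin, held 3 at -0.23. CTNNA1 and TJP1 had no shared and no MES-only peak either. Whether their binding differed between the states was not tested.

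Of 35 mesenchymal genes, 4 hosted EPI-only peaks, 5 in all, while the list held 169 MES-only peaks. All 4 were among the 20 genes of the list with a level. That is about the same share as the 1718 hosts among all 9016 genes tested. The hosts were ZEB1 and SPARC, both higher in MES, and TGFBI and the integrin gene ITGA5 (log2 fold changes -0.01 and 0.46), which did not pass. Over all 20 members of this list with a level, 17 were higher in MES (median log2 fold change 4.03, against 1.18 over the 4 hosts). Of 46 splicing regulators, 13 hosted 33 EPI-only peaks beside 72 shared and 28 MES-only ones. Among the 42 with a level, 12 were hosts. Of these 12 hosts, ESRP2 was lower in MES, with 852, 880 and 658 against 67.6, 70.4 and 75.9 scaled reads (-3.45). It held 1 EPI-only peak and no other. The other 11 did not pass both cutoffs, among them PTBP1 with 6 EPI-only and 34 shared peaks (-0.14), HNRNPU with 5 EPI-only peaks alone (0.59) and AKAP8L, the paralog of AKAP8, with 2 (-0.24). Over all 42 splicing regulators with a level, 3 were lower and 1 higher in MES.

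Knockdown of AKAP8 left the levels of nearly all host genes under the cutoffs. In EPI, limma called 3 of 1718 hosts (0.175%), beside 0.189% of all genes, a share at the background. RANBP3 fell from 1417, 1949 and 1318 to 759, 767 and 703 scaled reads (-1.05, adjusted p = 0.031 from limma), SH3D19 fell from 1145, 1048 and 1045 to 610, 403 and 632 (adjusted p = 0.038 from limma), and ANKRD52 rose from 381, 489 and 505 to 1000, 1124 and 931 (1.16, adjusted p = 0.012 from limma). They are named because they are so few. Without the library listed first in either EPI group the count was 0, without the control listed second it was 1, and without the knockdown library listed second it was 7. In MES, 54 hosts changed (3.14%), beside 2.27% of all genes. Of these hosts 21 were lower, the targeted AKAP8 among them, and 33 higher. Over all genes 106 were lower and 99 higher. SLC7A5 rose in MES knockdown from 1573, 1258 and 983 to 2981 and 4988 scaled reads (1.63, adjusted p = 0.0068 from limma). The desmosome plakin gene PPL fell from 127, 68.3 and 58.0 to 25.9 and 13.0 (-2.06, adjusted p = 0.019 from limma). The controls of each state entered the comparison of states too, so both fold changes of a gene are not independent. The MES count was 31 without the MES control listed second, and 25 and 18 without the first and second knockdown library, where the lone library was assumed to vary like the other groups. For none of the 27 named genes did the knockdown effects of the states differ at a limma adjusted p under 0.05 (lowest 0.58), and 3 had an unadjusted p under 0.05.

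Skipped exon (SE) events were called beside a member when the variable exon lay within 1000 nt of an EPI-only peak on its strand. In the EPI comparison these were 1304 events on 962 exons in 600 genes, so several events share an exon and its reads. In EPI knockdown, 4 of 1304 such events changed (0.307%; quasi-binomial test, adjusted p under 0.05 and |∆PSI| of at least 10 percentage points), beside 0.0588% of all 47579 events. Beside shared peaks it was 2 of 675 events (0.296%), about the same share. With the p left unadjusted (under 0.05) and the ∆PSI limit kept, the shares were 1.69% beside EPI-only peaks and 0.782% of all events. They were 0.741% beside shared and 1.48% beside MES-only peaks, so the last class was close to the members. In MES knockdown, 0 of 1120 events changed by the quasi-binomial test and 0 by limma on the logit of PSI, beside 0.0479% of all events by the first test. With the p left unadjusted, 15 passed by the quasi-binomial test (1.34%, beside 1.06% of all events) and 19 by limma at a p under 0.05. By the first test the share was higher beside shared (2.46%) and MES-only peaks (3.20%). The EPI count was 2 without the control listed first or second and 1 without the last control or without either of the last 2 knockdown libraries, and the MES count was 2 without the knockdown library listed first. The MES comparison had 2 libraries a group and the EPI comparison 3. With limma on the logit of PSI, 0 events changed in EPI too (12 at an unadjusted p under 0.05). An exact permutation test of a single event cannot give a p below 0.10 with 3 libraries against 3.

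CLSTN1, which encodes the cadherin-related membrane protein calsyntenin 1, held the event with the lowest p. PSI, the percentage of transcripts that include the exon, of its 57-nt exon (chr1:9797556-9797612) was 34.4, 34.3 and 30.4% in EPI control and 60.2, 58.8 and 54.8% in EPI knockdown libraries (∆PSI 24.9 points, adjusted p = 8.7e-11 from the limma-moderated quasi-binomial test). All knockdown libraries lay above all controls, the call held without any 1 library (∆PSI 23.6 to 26.5 points), and it was lost with limma on the logit of PSI (adjusted p = 0.88). In MES, PSI was 94.7 and 94.2% in the control and 96.1 and 94.8% in the knockdown libraries (∆PSI 0.99 points), close to full inclusion. The member of CLSTN1 printed above lies in the intron upstream of this exon, 162 nt from it, with a log2 ratio of 2.26 and a −log10 adjusted p of 3.57. It was among the weaker members, the only other AKAP8 peak of the gene was an EPI-only peak in the first intron (log2 ratio 3.78), and the nearest MES peak on the strand was 556299 nt away. The study reports AKAP8 binding at this site in both states, stronger in EPI, so the missing MES peak does not mean absent binding. The list tells only that no MES peak was called there, and the MES read signal at this site was not analysed here. The difference of the knockdown effect between the states was not tested for exons.

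The other 3 events passed less firmly. The 102-nt exon of ENTPD6, a nucleotide hydrolase gene (chr20:25201868-25201969), had a PSI of 72.3, 70.4 and 72.9% in control and 79.1, 91.7 and 87.1% in knockdown libraries (∆PSI 14.1 points, adjusted p = 0.048 from the limma-moderated test). Its member lies 852 nt downstream with a log2 ratio of 3.43. The 60-nt exon of TPD52L2 (chr20:62507169-62507228) went from 71.2, 76.8 and 76.1% to 67.2, 58.7 and 63.3% (-11.6 points, adjusted p = 0.0086 from the same test), and its member 689 nt downstream had a MES peak 114 nt away and 4 shared peaks beside the same exon. In MES the TPD52L2 exon went from 78.2 and 74.1% to 68.9 and 62.9% (-10.3 points, adjusted p = 0.19). A 938-nt exon of MICALL2, a Rab effector gene (chr7:1473846-1474783), went from 63.0, 88.2 and 61.2% to 100, 100 and 96.2% on 53 reads per library (27.9 points, adjusted p = 0.042 from the limma-moderated test), with 1 member inside it and 7 shared and 3 MES-only peaks within reach. The annotation used for peaks places that member in a proximal intron, so the region of this exon holds an annotated intron. Each of these 3 calls was lost without at least 4 of the 6 libraries in turn.

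**Figure D5:**
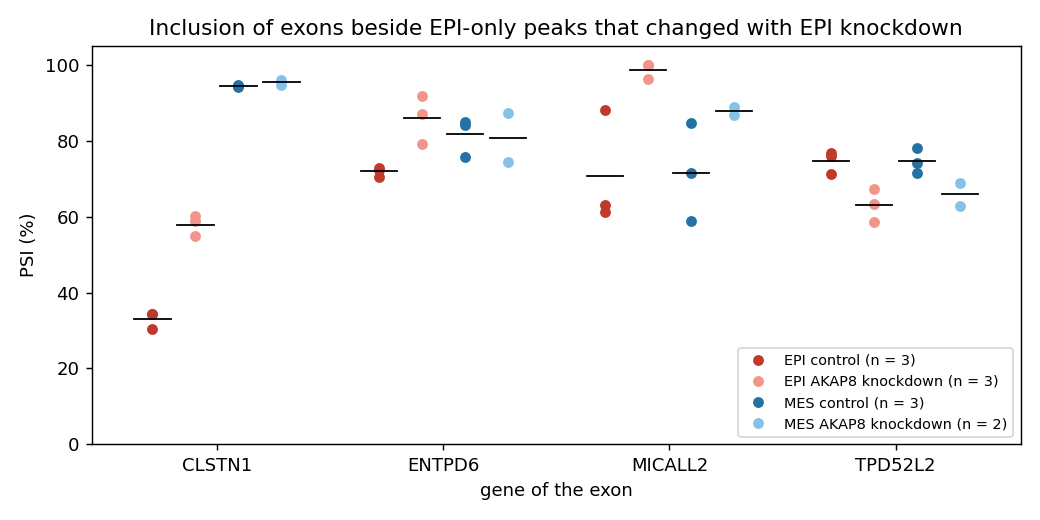
PSI (y axis, percent) of the 4 exons beside EPI-only peaks that changed in EPI knockdown (x axis), by library of the 4 groups, as dots with the group mean as a line. For CLSTN1 the EPI controls lie at 30.4 to 34.4%, the EPI knockdown libraries at 54.8 to 60.2% and all MES libraries above 94%.

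Between the control states, 34 of 1286 SE events beside EPI-only peaks changed (2.64%), in 24 genes, beside 1.40% of all 49330 events. Inclusion was higher in MES for 15 and lower for 19, and over all events for 381 and 310. The count was 21 without the EPI control listed first. The 1286 events lay on 967 exons in 597 genes. The share was 1.80% beside shared peaks (12 of 666) and 3.12% beside MES-only peaks (25 of 800), so the share beside the members did not exceed that class. The EPI control libraries of this comparison are those of the EPI knockdown comparison, in which reads were identical for 100% of 44899 events, so the values of an exon in the pair of comparisons are not independent.

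The CLSTN1 exon had the largest difference of these, from 33.0 ± 2.25% (SD, n = 3) in EPI to 94.5 ± 0.276% (SD, n = 3) in MES controls (∆PSI 61.4 points, adjusted p = 1.2e-85 from the limma-moderated test). DDR1, a collagen receptor tyrosine kinase, followed among the calls that held without any 1 library. Its 56-nt exon (chr6:30853402-30853457) went from 34.0, 37.1 and 35.2% to 74.3, 79.9 and 86.1% (44.7 points, adjusted p = 0.00072 from the limma-moderated test). It had 4 EPI-only and no other peaks within reach, 1 of them 221 nt upstream and 3 downstream at 177, 181 and 265 nt, of which the first is the printed one. In EPI knockdown the DDR1 exon had a ∆PSI of 0.21 points.

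SMPD4, a sphingomyelinase gene, went from 23.9, 27.6 and 27.3% to 67.4, 62.6 and 41.2% for its 87-nt exon (chr2:130918759-130918845), with 2 EPI-only and no other peaks nearby. PISD, a phospholipid enzyme of mitochondria, went from 11.9, 11.2 and 20.7% to 51.3, 51.7 and 25% for a 166-nt exon (chr22:32019670-32019835), with 1 EPI-only, 1 shared and 4 MES-only peaks. The groups did not overlap in either gene, and both calls held without any 1 library and were lost with limma on the logit of PSI.

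The other 6 of the 10 largest were called with all libraries and lost without at least 1 of them. FXYD3 (∆PSI -55.0 points), PILRB (-49.4), A1BG-AS1 (-36.6) and TNS2-AS1 (-31.5) were lower in MES, and SEPTIN2 (35.7) and SEMA4B (29.5) higher. The MES control listed second decided much of the size for a pair of these: without it the ∆PSI of TNS2-AS1, whose PSI was 81.8, 23.8 and 100% in the MES controls, went from -31.5 to -9.09 points, and that of FXYD3 from -55.0 to -35.0 points. Coverage was low for several, at 25.3 junction reads per library for PILRB, 34.5 for SEPTIN2 and 35.5 for A1BG-AS1. For FXYD3, PSI was 49.5, 0 and 71.0% in the 3 MES controls, in which the gene itself was reduced. The semaphorin gene SEMA4B had 6 EPI-only peaks around its 278-nt exon (chr15:90744690-90744967) and no other, and PSI rose from 72.9, 71.0 and 67.5% to 100% in all 3 MES controls on 77.3 reads per library.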

How the data were processed

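Per the labels and the study's methods, eCLIP reads were processed by the authors with a public eCLIP pipeline, and the replicates were merged to 1 peak list per state in GRCh37. For each peak the authors deposited a −log10 adjusted p and a log2 ratio of IP to size-matched input, and no value per replicate. RNA-seq reads were aligned by the authors to GRCh37 with STAR 2.6.1a and counted per event with rMATS under a stranded library setting, and the deposited SE tables list the junction read counts of all libraries of a group in 1 field. The authors' gene table, with fold changes and p-values, and the tables of other event types were not used.

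Peaks were compared with an overlap of 1 nt on the same strand (checked with bedtools 2.31.1). Gencode v44 basic transcripts lifted to GRCh37 placed each peak centre, with exons before introns, protein-coding genes first and 500 nt as the limit of proximal introns. Among introns of overlapping transcripts, the one with the nearest splice site was taken, in all peak classes alike. Proximal shares are thus the highest that these transcripts allow. Intron number, intron length and distance from the start come from the transcript taken. This annotation is newer than that of the authors. Motifs were searched on the RNA strand only. Intervals are exact at 95%.

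Gene levels were sums of inclusion and skipping reads over 33107 SE events present in all 3 tables (9212 genes), divided by median-of-ratios size factors. They change with splicing and count a read once per event. Genes with at least 10 in 2 libraries were tested with limma 3.58.1 with trend on log2(value + 1), in 1 fit of 11 libraries. Fold changes are on that scale. SE events with 20 junction reads per library went into a quasi-binomial model per event, with dispersions moderated by limma (squeezeVar) and an F test, and PSI was recomputed with the effective lengths in the tables. Tests ran over all genes or events and were adjusted by Benjamini-Hochberg. The study's methods call the libraries of a group biological replicates, and the labels do not say whether they came from separate cultures.

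Named genes were the 10 with the most members, the 10 strongest members, exons called beside members in a knockdown and the 10 largest in EMT, the 10 hosts with the largest called fold change each way, and hosts in 3 gene lists. Some of these are not reported here. The members, lists and tests were chosen with earlier results of these data known.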

Additional observations from a re-analysis of the deposited data

How the results depend on the processing

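The eCLIP lists give no replicate values, so the members could not be checked between replicates. Of 107 recomputed values that answer a comparison, 72 stayed within 1.5 times the count, or within the interval of the share. Merging overlapping peaks to sites, cutoffs on both lists and the strongest peak of each site were chosen after seeing the data and were among these 72. The number of EPI-only peaks was 6111 with gaps of up to 500 nt as shared, 1968 at a log2 ratio of at least 4 and 5640 at a −log10 adjusted p of at least 5. The proximal intron share was 32.1% with gaps of up to 500 nt as shared, 29.6% with protein-coding genes only and 14.7% with a limit of 200 nt, and the distal share 55.3% and 74.0% under the last 2. The exon share was 7.13% with protein-coding genes only. GGG was in 99.2% of 50-nt windows, in 97.8% of the peaks themselves and in 100% at a log2 ratio of at least 4. Hosts lower and higher in MES numbered 333 and 142 without a fold cutoff and 140 and 14 for genes with no other AKAP8 peak, and 27 were higher among genes with at least 2 members. Leaving out 1 library gave 178 to 225 hosts lower and 43 to 59 higher in MES, 0 to 7 changed by EPI knockdown and 18 to 46 by MES knockdown. It gave 1 to 4 SE events in EPI knockdown, 0 to 2 in MES knockdown and 21 to 38 in EMT. With 500 nt from the exon, 2 SE events changed in EPI knockdown and 17 in EMT, over fewer events, and with limma on the logit of PSI 0 and 18, where the cause was not tested. Of 396 recomputed values of named genes and exons, 351 kept their call, 45 lost it and 0 changed sign. No paired analysis was possible because the tables list the libraries of a group in 1 field without replicate numbers.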
